A study of Mus musculus with 24 samples.

Results

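Old and young trained mice were compared in the gastrocnemius (GAS), a calf muscle made up mostly of fast-twitch fibers. The comparison, written GAS OE/YE, sets old exercise mice (OE, replicates 1, 2 and 3) against young exercise mice (YE, replicates 1, 2 and 4), and the members were taken from the sample labels alone. It uses 6 of the 24 RNA-seq libraries of the series and all 18795 genes of the table. All mice were male, the study describes C57BL/6 mice, and the labels give 84 weeks for OE and 9 weeks for YE. The study gives these as ages at purchase, so the age at collection was higher, and the time of day of collection is not given in the sources used here. Both groups ran on a treadmill for 4 weeks, so the training is shared, and the labels separate them by age. Anything else that differed between the groups, such as the hour of collection, cannot be told apart from age. The control mice of the same ages, old control (OC) and young control (YC), did not run, and the soleus (SOL), a slow-twitch muscle next to the gastrocnemius, was sequenced as well. Each group had 3 mice in the account of the study, and each library is a whole-muscle sample.

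Aging muscle loses mass and strength, and fast fibers are known to be affected more than slow ones. Fibers that lose contact with their motor neuron switch on subunits and organizers of the acetylcholine receptor along their length, as embryonic muscle does. The muscle also holds fibroblasts, tendon cells, fat cells, macrophages and mast cells between its fibers, and its own circadian clock sets daily rhythms of metabolism.

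Values are FPKM, the fragments of a gene scaled to its length and to the library. Fold changes are differences of log2(FPKM + 1) after quantile normalization, a scale that understates the change of low genes. A gene is said to have risen or fallen where limma, fitted to the 12 GAS libraries, gave an adjusted p under 0.05, and otherwise its values are given. DEGs here are genes with an unadjusted limma p under 0.05 and a fold change over 1.5. These are the study's thresholds, but the study tested each gene on its own without pooling the spread, so its lists can differ in size, and in OE/YE such a test gave 112 genes where limma gave 171. In bulk muscle, fewer cells of a type and less RNA per cell cannot be told apart.

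The libraries carried the RNA of fast muscle. Acta1, the skeletal actin, was between 30302 and 37945 FPKM in the 6 libraries, and Myh4, the fastest myosin heavy chain, was between 7128 and 13638 FPKM. The 14 fast contractile genes had a median log2 fold change of 0.02 in OE/YE, and none was a DEG. Quantile normalization sets genes of equal rank to equal values, and without it the median was 0.07. The slow genes were uneven within both groups. Myh7, the slow myosin heavy chain, was at 168, 6.22 and 89.2 FPKM in OE and at 74.0, 12.1 and 6.75 FPKM in YE, with high and low libraries in each group. The summed level of the 12 slow contractile genes ran from 656 to 3100 FPKM in OE and from 686 to 1610 FPKM in YE, and their median log2 fold change of 0.71 lies within that spread. It ran from 0.23 without OE replicate 1 to 1.36 without OE replicate 2. OE replicate 3 stood apart from the other GAS libraries, with a mean correlation of 0.984 with them against 0.988 to 0.992 for the others.

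Between OE and YE, 21 genes rose (0.112% of the genes tested) and 10 fell (0.0532%), 31 of 18795 in all or 0.165%. At an unadjusted p under 0.05 there were 2006 genes (10.7%). The DEGs numbered 171 (0.91%), of which 96 were higher (0.511%) and 75 lower (0.399%) in OE. In all 31 changed genes the 3 OE values lay outside the range of the 3 YE values, as they did in 2095 genes of the table (11.1%). The calls rest on the spread over all 4 GAS groups: limma on only the 6 libraries compared called 1 gene, as did an equal-variance test of each gene, and in neither case was it among the 31. Without YE replicate 1, YE replicate 4 or OE replicate 1 the count was 14, 10 or 58, with 6, 5 or 22 of the 31 among them. Without OE replicate 3 it was 35, with 17 of the 31 among them. Without YE replicate 2 or OE replicate 2 it was 26 or 29, with 12 or 13 of the 31.

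On the log2(FPKM + 1) scale the largest rises were those of Dkk3, Kcnab1 and Mib1. The order depends on the pseudocount. With 0.1 in place of 1 the values were 2.87 for Cpn1, 2.27 for Tmem132b, 2.07 for Kcnab1 and 1.77 for Dkk3. Then came AI847159 with 1.69, Prkcz with 1.58 and Mib1 with 1.5. Dkk3 (gene ID 50781, on chromosome 7 of GRCm38.p6 at 112116019 to 112159482) codes for a secreted glycoprotein of the dickkopf family, which is known for modulating Wnt signalling. It was at 12.1, 9.42 and 11.7 FPKM in OE and at 3.18, 3.08 and 3.10 FPKM in YE. The lowest old library was thus well above the highest young library, and the 3 young libraries were nearly the same. Its log2 fold change was 1.55 with a standard error of 0.17 (limma, adjusted p = 0.0237). Kcnab1 (gene ID 16497, on chromosome 3 at 64949212 to 65378225) codes for an auxiliary beta subunit of potassium channels of the Kv1 family. Its values were 5.50, 4.43 and 3.82 FPKM in OE and 1.12, 0.928 and 1.10 FPKM in YE, which is 1.52 ± 0.19 on the log2 scale (standard error, limma adjusted p = 0.0301). Mib1, an E3 ubiquitin ligase that acts on Notch ligands, was at 19.4, 21.1 and 14.9 FPKM in OE and at 6.63, 4.63 and 8.07 FPKM in YE, a log2 fold change of 1.39.

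Camk2b, Uap1l1 and Cpn1 were the 3 genes that stayed called with each library left out in turn. Camk2b (gene ID 12323, on chromosome 11 at 5969629 to 6066357) codes for the beta subunit of the calcium/calmodulin-dependent kinase II, a kinase that reads calcium signals in muscle. It was at 79.9, 90.1 and 87.5 FPKM in OE and at 49.3, 49.2 and 50.7 FPKM in YE. Its log2 fold change was 0.78 ± 0.08 (standard error, limma adjusted p = 0.0177). Uap1l1, a relative of the enzyme that makes UDP-N-acetylglucosamine, was between 4.41 and 4.58 FPKM in OE and between 2.11 and 2.61 FPKM in YE. Cpn1 (gene ID 93721, on chromosome 19 at 43956307 to 43986551), the catalytic subunit of carboxypeptidase N, had the lowest adjusted p of all genes, 0.00139. It was low throughout, at 0.781, 0.905 and 0.893 FPKM in OE and at 0.0921, 0.0690 and 0 FPKM in YE. Prkcz, an atypical protein kinase C, rose from 0.394 ± 0.043 to 1.32 ± 0.25 FPKM (mean ± SD, n = 3).

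Other genes that rose differed in what they code for. Cpne2, a calcium-dependent phospholipid-binding copine, was at 9.87, 10.8 and 10.0 FPKM in OE and at 3.97, 4.67 and 3.46 FPKM in YE. Tmem132b, a transmembrane protein, was between 1.33 and 1.77 FPKM in OE and between 0.165 and 0.506 FPKM in YE. Spint2, an inhibitor of serine proteases at the cell surface, was at 3.66, 5.15 and 5.12 FPKM in OE and between 1.98 and 2.13 FPKM in YE. Tnfrsf23, a decoy receptor of the death ligand TRAIL in the mouse, averaged 2.14 ± 0.23 FPKM in OE and 1.08 ± 0.23 FPKM in YE (SD, n = 3). Trem2, a receptor of macrophages and microglia, was between 1.00 and 1.14 FPKM in OE and between 0.363 and 0.449 FPKM in YE. The macrophage list, which does not hold Trem2, is given further on. Spock2, a matrix proteoglycan, and Myo10, the myosin of filopodia, rose by log2 fold changes of 0.62 and 0.61.

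The remaining rises were smaller or rested on very low values. Htatip2, an oxidoreductase, rose by 0.64, Ube2o, a ubiquitin-conjugating enzyme, by 0.42, Zhx2, a transcriptional repressor, by 0.40 and Prpf6, a component of the spliceosome, by 0.27 on the log2 scale. Zhx2 was between 9.23 and 9.45 FPKM in OE and between 6.42 and 7.72 FPKM in YE. Slc6a4, the serotonin transporter, Erc2, a protein of the presynaptic active zone, and AI847159 averaged 0.258, 0.193 and 0.186 FPKM in OE, and AI847159 was listed at 0 in each YE library.

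**Figure D1:**
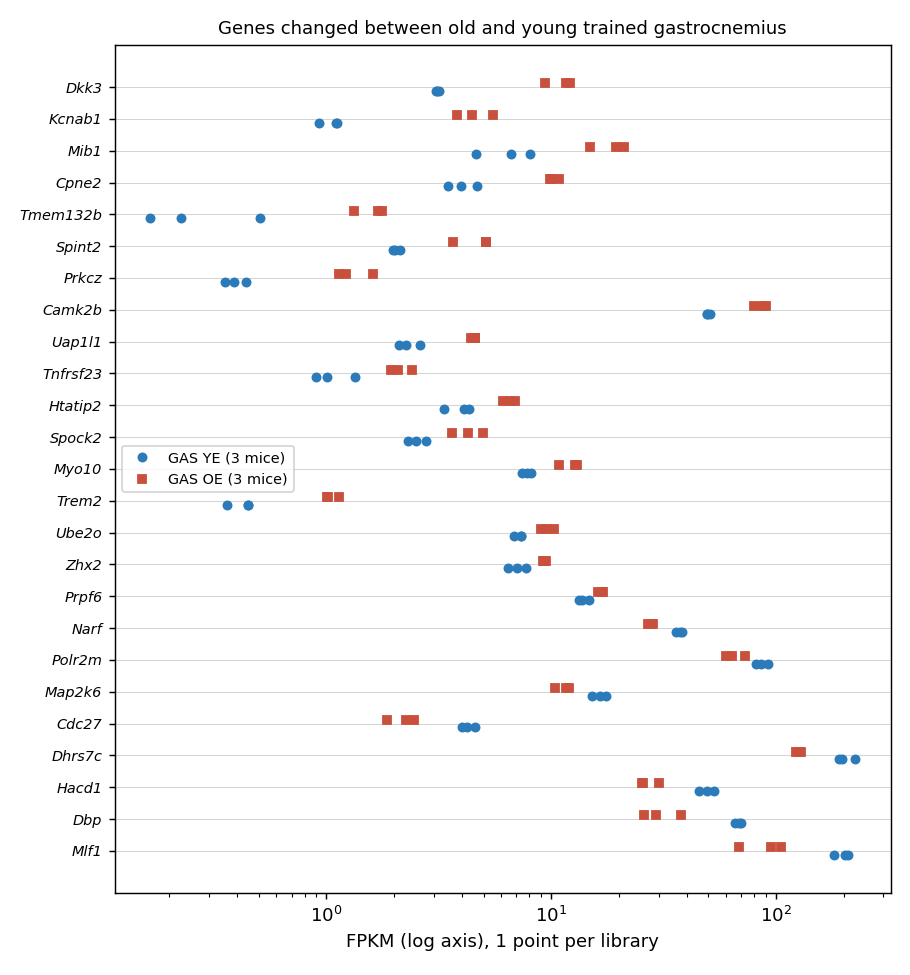
FPKM (log axis) of the 25 changed genes with a mean of at least 1 FPKM in OE or YE, 17 of which rose and 8 fell, with 1 point per library (circles GAS YE, squares GAS OE, 3 mice each). The genes are ordered by log2 fold change from Dkk3 at the top to Mlf1 at the bottom, and in each of them the 3 old libraries lie outside the range of the 3 young ones.

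The genes that fell include proteins of the muscle fiber that are abundant in the gastrocnemius. Mlf1 (gene ID 17349, on chromosome 3 at 67374097 to 67400000), a nucleocytoplasmic adaptor protein expressed in muscle, was at 106, 94.8 and 68.2 FPKM in OE and at 202, 209 and 181 FPKM in YE. Its log2 fold change was -1.11 ± 0.15 (standard error, limma adjusted p = 0.0402), and the lowest old value was in OE replicate 3. Dhrs7c (gene ID 68460, on chromosome 11 at 67798271 to 67816002) codes for a short-chain dehydrogenase of the sarcoplasmic reticulum. It was at 122, 126 and 129 FPKM in OE and at 190, 225 and 197 FPKM in YE, a log2 fold change of -0.68 (adjusted p = 0.0237). Hacd1, a dehydratase of very long chain fatty acid synthesis with a role in muscle growth, was at 25.4, 30.3 and 25.7 FPKM in OE and at 53.1, 45.5 and 49.2 FPKM in YE. Each young value exceeded each old one for all 3 genes.

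A clock output gene and signalling and cell cycle genes fell as well. Dbp (gene ID 13170, on chromosome 7 at 45705100 to 45710203), a transcription factor whose level cycles strongly over the day, was at 29.4, 25.9 and 37.8 FPKM in OE and at 69.6, 68.2 and 65.6 FPKM in YE, or -1.07 ± 0.14 on the log2 scale (standard error, limma adjusted p = 0.0402). Cdc27, a subunit of the anaphase-promoting complex, was at 2.45, 2.25 and 1.86 FPKM in OE and at 4.60, 4.01 and 4.24 FPKM in YE. Map2k6, the kinase that activates p38, was between 10.4 and 12.0 FPKM in OE and between 15.2 and 17.4 FPKM in YE. Polr2m, a subunit associated with RNA polymerase II, and Narf, which binds prelamin A, fell by 0.39 and 0.36 on the log2 scale. Narf was the most even of these, between 27.1 and 28.2 FPKM in OE and between 36.0 and 38.2 FPKM in YE. Mir1894 and Mir1905 also passed the test, but their loci were under 1 FPKM in every GAS library, Mir1894 was listed at 0 in each OE library, and the assay does not measure mature miRNAs.

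The control mice give the same comparison of ages without training. Their slow contractile genes were uneven too, with sums of 355, 180 and 2510 FPKM in YC and of 1340 to 2080 FPKM in OC. The median log2 fold change of that list was 2.15 in OC/YC. The part of slow fibers in the OC/YC values was not tested. OC and YC share no library with OE and YE, but the fit estimates 1 spread for all 12 libraries. Of the 31 genes, 29 had the same direction in OC/YC, where 61.2% of all genes with a difference in both did. At an unadjusted p under 0.05 and in the same direction there were 26 of the 31, against 10.5% of all genes at that p in either direction, and 25 had no overlap between OC and YC, against 18.0% of all genes. Those called in OC/YC too, among the 8 genes called there (0.0426%), were 6: Cpn1, Dhrs7c, Tnfrsf23, Cpne2, Dkk3 and Kcnab1. Dkk3 was at 9.60, 10.1 and 15.2 FPKM in OC and at 2.68, 4.16 and 3.51 FPKM in YC, and Kcnab1 was at 5.77, 4.37 and 6.92 FPKM in OC and at 1.28, 1.37 and 0.814 FPKM in YC. The 21 genes that rose had a median log2 fold change of 0.68 in OE/YE and 0.53 in OC/YC, and the 10 that fell had -0.64 and -0.19. All were chosen by their OE/YE values, which favors larger changes in OE/YE than in OC/YC. They were also called with a spread that includes OC and YC, which favors a low p and no overlap in OC/YC. The shares of the 31 against those of all genes are therefore no independent test.

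The falling genes differed in how far the control mice shared them. Mlf1, Hacd1 and Dhrs7c had nearly the same fold change in both pairs, with -1.09, -0.79 and -0.78 in OC/YC. Cdc27 and Map2k6 had -0.05 and 0.02 there. Cdc27 was between 4.26 and 5.20 FPKM in OC and between 4.45 and 4.73 FPKM in YC, so only the trained old libraries were low. Map2k6 was between 9.39 and 11.8 FPKM in all 6 control libraries, close to OE, and the trained young libraries were the high ones. Zhx2, which rose in OE/YE, had 0.02 in OC/YC.

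A test of the difference between OE/YE and OC/YC called 1 gene of 18795 (0.00532%), with 815 at an unadjusted p under 0.05 (4.34%). That gene, Ppp1r36, was listed at 0 in 9 GAS libraries and near 0.05 FPKM in the 3 OC libraries, and its difference was -0.08 on the log2 scale (limma, adjusted p = 0.0368). Among the 31 genes the lowest adjusted p of the difference was 0.501, and 12 had an unadjusted p under 0.05. The 31 were chosen by their OE/YE values, which also enter this difference. That count and the intervals below are therefore no independent test. The difference was -0.62 for Cdc27 with a 95% interval from -0.87 to -0.38, -0.45 for Map2k6 from -0.62 to -0.27 and 0.37 for Zhx2 from 0.23 to 0.52. For Dkk3 it was 0.20 from -0.33 to 0.73 and for Kcnab1 -0.0017 from -0.59 to 0.59, intervals wide enough to hold a sizeable difference either way. Of the 171 DEGs, 160 had the same direction in OC/YC and 61 were DEGs there too by the same limma fit, 35.7% of the OE/YE DEGs and 30.5% of the 200 OC/YC DEGs (1.06% of all genes). All 61 had the same direction in both.

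**Figure D2:**
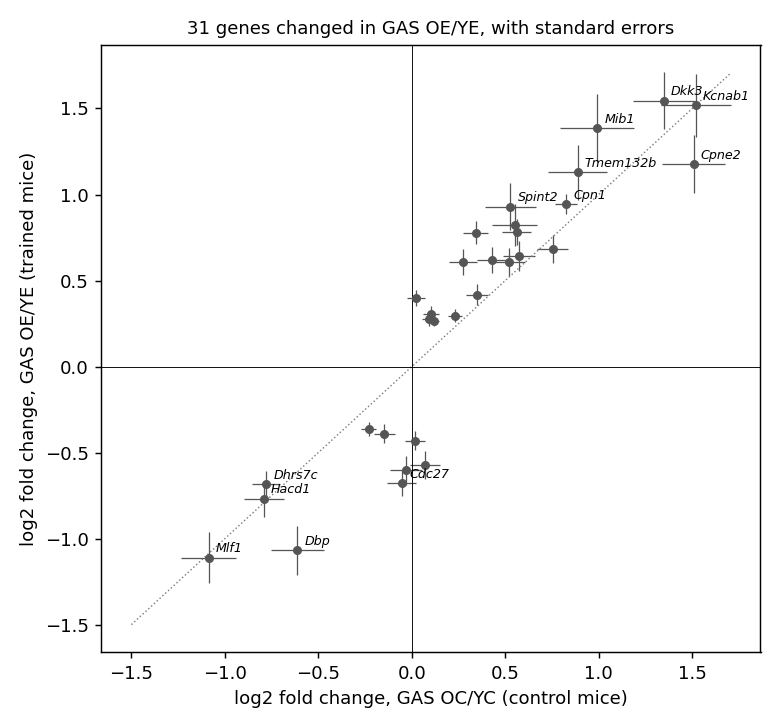
Log2 fold change with age of the 31 genes changed in GAS OE/YE, in trained mice (vertical axis) against control mice (horizontal axis), with bars of 1 standard error and a dotted line of equal change. Mlf1, Hacd1, Dhrs7c, Kcnab1 and Dkk3 lie near the line, while Cdc27 lies near 0 in control mice.

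In the soleus of the same trained groups some of these genes gave fold changes near 0. The difference between the age effect in GAS and in SOL was called for 26 genes (0.138%), with a positive difference for 10 and a negative one for 16, and 8 of the 26 were among the 31. The fit for these 26 took the SOL and GAS libraries as independent. With both muscles of a number treated as 1 mouse the count was 16, of which 15 were among the 26. Most of the 26 were low, and 21 had a mean log2 value under 1. Kcnab1 was between 0.358 and 0.512 FPKM in all 6 trained SOL libraries, with a log2 fold change of -0.01 there, and the difference between the muscles was 1.53 ± 0.21 (standard error, limma adjusted p = 0.00302). Dkk3 was between 0.657 and 1.21 FPKM in those libraries, and its difference was 1.48. Cpne2 was between 2.22 and 3.52 FPKM, with old and young libraries overlapping, and differed by 1.19. Tmem132b was listed at 0 in 4 of the 6 SOL libraries and differed by 1.13. Cdc27 was between 5.23 and 5.92 FPKM in SOL, and its age effect was 0.78 lower in GAS.

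In the opposite direction, 4 named genes rose with age in trained SOL and stayed low in GAS. Amph, an endocytic protein known from nerve terminals, was between 2.32 and 3.37 FPKM in SOL OE and between 0.442 and 0.637 FPKM in SOL YE. In GAS it was under 0.36 FPKM in all 6 libraries, and the difference was -1.22. Gnal, a stimulatory G protein alpha subunit, differed by -1.16, Kcnj3, an inwardly rectifying potassium channel, by -0.71 and Ccdc64 by -0.70. In GAS OE/YE their log2 fold changes were 0.16, 0.07 and 0.03, and with a pseudocount of 0.1 they were 0.58, 0.35 and 0.10. Other genes of the 31 changed in both muscles. Camk2b, Dbp, Prkcz and Htatip2 had log2 fold changes of 0.46, -1.21, 1.23 and 0.74 in SOL OE/YE at an adjusted p under 0.05 in limma, where 523 genes (2.78%) passed.

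**Figure D3:**
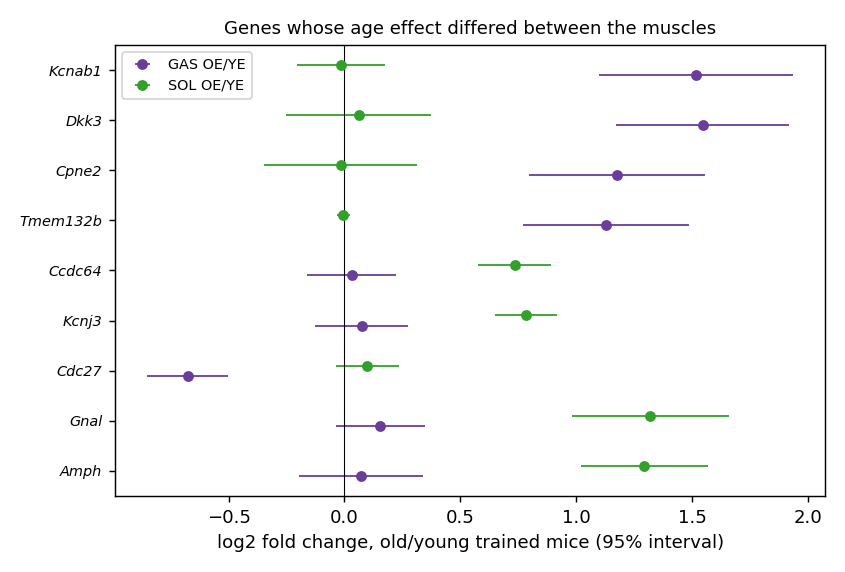
Log2 fold change of old over young trained mice in GAS and SOL for the 9 named genes whose age effect differed between the muscles, with 95% intervals. Kcnab1, Dkk3, Cpne2 and Tmem132b changed in GAS and lie near 0 in SOL, Amph, Gnal, Kcnj3 and Ccdc64 do the reverse, and Cdc27 is below 0 in GAS.

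Gene lists were read by their counts and medians beside those of all genes, where the median log2 fold change was 0.00, 0.91% were DEGs and 11.1% had no overlap between OE and YE. Of 618 list genes, 4 changed: Dkk3, Kcnab1, Dhrs7c and Dbp. All other list genes named here did not pass the test, and their values are given as measured.

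Matrix genes had lower values in the old trained muscle. Of 24 fibrillar collagen and matrix genes, 21 had a log2 fold change below 0, with a median of -0.32, and 3 were DEGs lower in OE. Without YE replicate 1 the median was -0.14. Col1a1, a chain of type I collagen, was at 6.41, 7.67 and 11.6 FPKM in OE and at 43.0, 25.5 and 15.5 FPKM in YE, a log2 fold change of -1.42 (limma, adjusted p = 0.173). Col1a2, its partner chain, was at 17.3, 20.3 and 22.9 FPKM in OE and at 89.5, 44.5 and 36.3 FPKM in YE. The young libraries were spread and the old ones were close together, and YE replicate 1 was the highest in both genes. Col3a1 overlapped between the groups, with 17.8 and 14.1 FPKM in 2 young libraries and up to 14.7 FPKM in the old ones. Serpinh1, the collagen chaperone, was between 14.6 and 17.0 FPKM in OE and between 18.1 and 31.1 FPKM in YE. The control mice had -1.40 for Col1a1 and -1.02 for Col1a2, so the lower values were not limited to trained mice.

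Genes of tendon had lower values as well. The 12 tendon and cartilage genes had a median of -0.91, 5 were DEGs lower in OE, and their summed level ran from 80.9 to 205 FPKM in OE and from 236 to 374 FPKM in YE. The median was -0.55 without OE replicate 2 and -0.59 without YE replicate 1. The part of tendon tissue in the collagen values was not tested. Fmod, a collagen-binding proteoglycan, was at 53.9, 25.1 and 80.5 FPKM in OE and at 153, 98.0 and 104 FPKM in YE. Chad, a cartilage leucine-rich protein, was at 9.50, 4.08 and 19.6 FPKM in OE and at 35.6, 31.4 and 22.2 FPKM in YE, and Cilp2, a cartilage matrix protein, was between 0.322 and 1.06 FPKM in OE and between 2.58 and 5.34 FPKM in YE. OE replicate 2 was the lowest old library for all 3. In control mice the list had a median of -0.26 and Fmod overlapped between the ages. Scx, the transcription factor of tendon cells, went the other way, between 4.74 and 5.90 FPKM in OE and between 3.81 and 4.49 FPKM in YE. The 12 markers of fibro-adipogenic progenitors, the fibroblast-like cells of muscle, had a median of -0.22, which was -0.12 without OE replicate 3 and between -0.14 and -0.30 without one of the others, and summed to between 745 and 857 FPKM in OE and between 818 and 1020 FPKM in YE. Mmp14, a membrane-bound protease that cleaves collagen, was at 5.46, 6.29 and 7.01 FPKM in OE and at 3.97, 3.96 and 3.37 FPKM in YE, a log2 fold change of 0.63 (limma, adjusted p = 0.0569), against 0.05 in control mice.

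Other clock genes were read beside Dbp. In the core loop of the clock, Arntl (also called Bmal1) and Clock bind E-boxes, CACGTG, in genes such as Ciart and the Per genes, whose proteins feed back on them, and Dbp and its relatives Hlf and Tef bind D-boxes, TTATGTAA. Ciart and Per3 are shown because both had lower values in OE and their promoters hold repeated copies of these letters, in capitals. The sequences are from RefSeq on GRCm38.p6, on the minus strand and read 5′ to 3′, from chr3:95882259-95882358 for Ciart and chr4:151044786-151044885 for Per3, which end 31 and 121 bases before the annotated start.
Ciart: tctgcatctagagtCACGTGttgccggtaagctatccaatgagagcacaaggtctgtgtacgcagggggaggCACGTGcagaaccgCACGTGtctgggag
Per3: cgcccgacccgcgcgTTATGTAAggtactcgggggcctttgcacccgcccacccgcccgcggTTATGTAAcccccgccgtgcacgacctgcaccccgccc
Of 32851 promoter windows of 250 bases before a start, read on both strands, 6.02% held CACGTG at least once and 0.0609% held it 3 times or more, as Ciart does. TTATGTAA was in 0.819% at least once and in 0.0183% at least 2 times, as in Per3. Among 16 clock genes with a window, 5 held CACGTG and 1 held TTATGTAA in any of their windows. Some genes have several windows, so the counts of genes, here and below, cannot be set directly against the shares of windows. These matches describe the letters only.

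Ciart and Per3, which were picked for their lower values in OE, are given here with Arntl, which had higher ones. Ciart, a repressor of Clock and Arntl, was at 1.76, 1.85 and 2.88 FPKM in OE and at 4.18, 4.03 and 6.41 FPKM in YE, a log2 fold change of -0.83 (limma, adjusted p = 0.249). Per3 was at 5.35, 4.46 and 5.43 FPKM in OE and at 8.05, 7.80 and 6.12 FPKM in YE. Arntl was at 4.61, 6.54 and 3.97 FPKM in OE and at 2.17, 2.17 and 2.48 FPKM in YE, a log2 fold change of 0.90 (adjusted p = 0.0569). Dbp and Arntl, which peak at opposite times of day, had opposite signs, and the part of the hour of collection, which is not given, was not tested. In OC/YC Arntl had -0.04 and Per3 0.04, while Ciart had -1.14 and Dbp -0.61. Of the 19 clock genes 15 had a value below 0, with a median of -0.18, and 8 had no overlap between the groups. Cry2, another repressor, was between 19.7 and 21.7 FPKM in OE and between 14.5 and 15.4 FPKM in YE.

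Genes of the neuromuscular junction and of denervated fibers had higher values in OE. Of 21 measured genes 19 had a log2 fold change above 0, with a median of 0.27, 10 had no overlap and 2 were DEGs. The promoter of Chrna1, the alpha subunit of the muscle acetylcholine receptor, is shown because the gene is a classic marker of denervation and the promoter holds the letters CAGCTG, a form of the E-box that myogenic factors bind. It is the 130 bases before the start, on the minus strand of chr2:73580339-73580468 (RefSeq, GRCm38.p6), with that E-box in capitals.
Chrna1: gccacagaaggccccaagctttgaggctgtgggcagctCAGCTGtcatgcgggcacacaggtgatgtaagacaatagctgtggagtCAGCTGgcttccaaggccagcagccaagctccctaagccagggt
CAGCTG was in 13% of the promoter windows at least once and in 1.26% at least 2 times, and in 6 of 13 genes of the list with a window. Chrna1 was at 6.14, 5.27 and 5.83 FPKM in OE and at 2.58, 3.86 and 3.03 FPKM in YE, a log2 fold change of 0.75 (limma, adjusted p = 0.140), and 0.64 in control mice. Sln, sarcolipin, an inhibitor of the sarcoplasmic calcium pump, was at 3.90, 7.80 and 13.5 FPKM in OE and at 1.35, 2.16 and 0.971 FPKM in YE. Its log2 fold change was 1.84, and the old libraries were spread.

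The organizers Lrp4 and Musk and the subunit Chrnb1 showed smaller shifts than Chrna1. Lrp4, the agrin receptor of the fiber, was at 2.21, 2.28 and 2.28 FPKM in OE and at 1.87, 1.88 and 1.28 FPKM in YE. Chrnb1, the beta subunit, was at 20.1, 29.5 and 21.9 FPKM in OE and at 15.2, 15.1 and 18.1 FPKM in YE. Musk, the kinase that Lrp4 activates, overlapped, with 7.80 to 9.26 FPKM in OE and 6.07 to 8.00 FPKM in YE. Chrng, the embryonic gamma subunit, was under 0.8 FPKM in all 6 libraries. With a pseudocount of 0.1 its log2 fold change was 1.82, against 0.89 for Chrna1. Myog, the myogenic factor that denervation raises, and Runx1 had log2 fold changes of 0.32 and 0.10 in OE/YE and 0.79 and 0.45 in OC/YC. For Runx1 the difference of -0.35 had a 95% interval from -0.69 to -0.02. Of 17 genes of atrophy and protein breakdown, 11 had a value above 0 and 6 below, with a median of 0.11. Without YE replicate 1 the median was 0.004. Among the 17, 5 had no overlap and 1 was a DEG, higher in OE. The list summed to between 1690 and 2080 FPKM in OE and between 1400 and 1630 FPKM in YE. Fbxo32, a muscle-specific ubiquitin ligase, was at 62.9, 95.6 and 58.4 FPKM in OE and at 49.2, 33.1 and 62.0 FPKM in YE, so the groups overlapped. Trim63, another, overlapped too, with a log2 fold change of 0.16. Tnnt2, a troponin T of embryonic and cardiac muscle, was outside these lists and chosen after its values were seen. It was between 3.11 and 6.47 FPKM in OE and between 1.68 and 2.59 FPKM in YE.

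**Figure D4:**
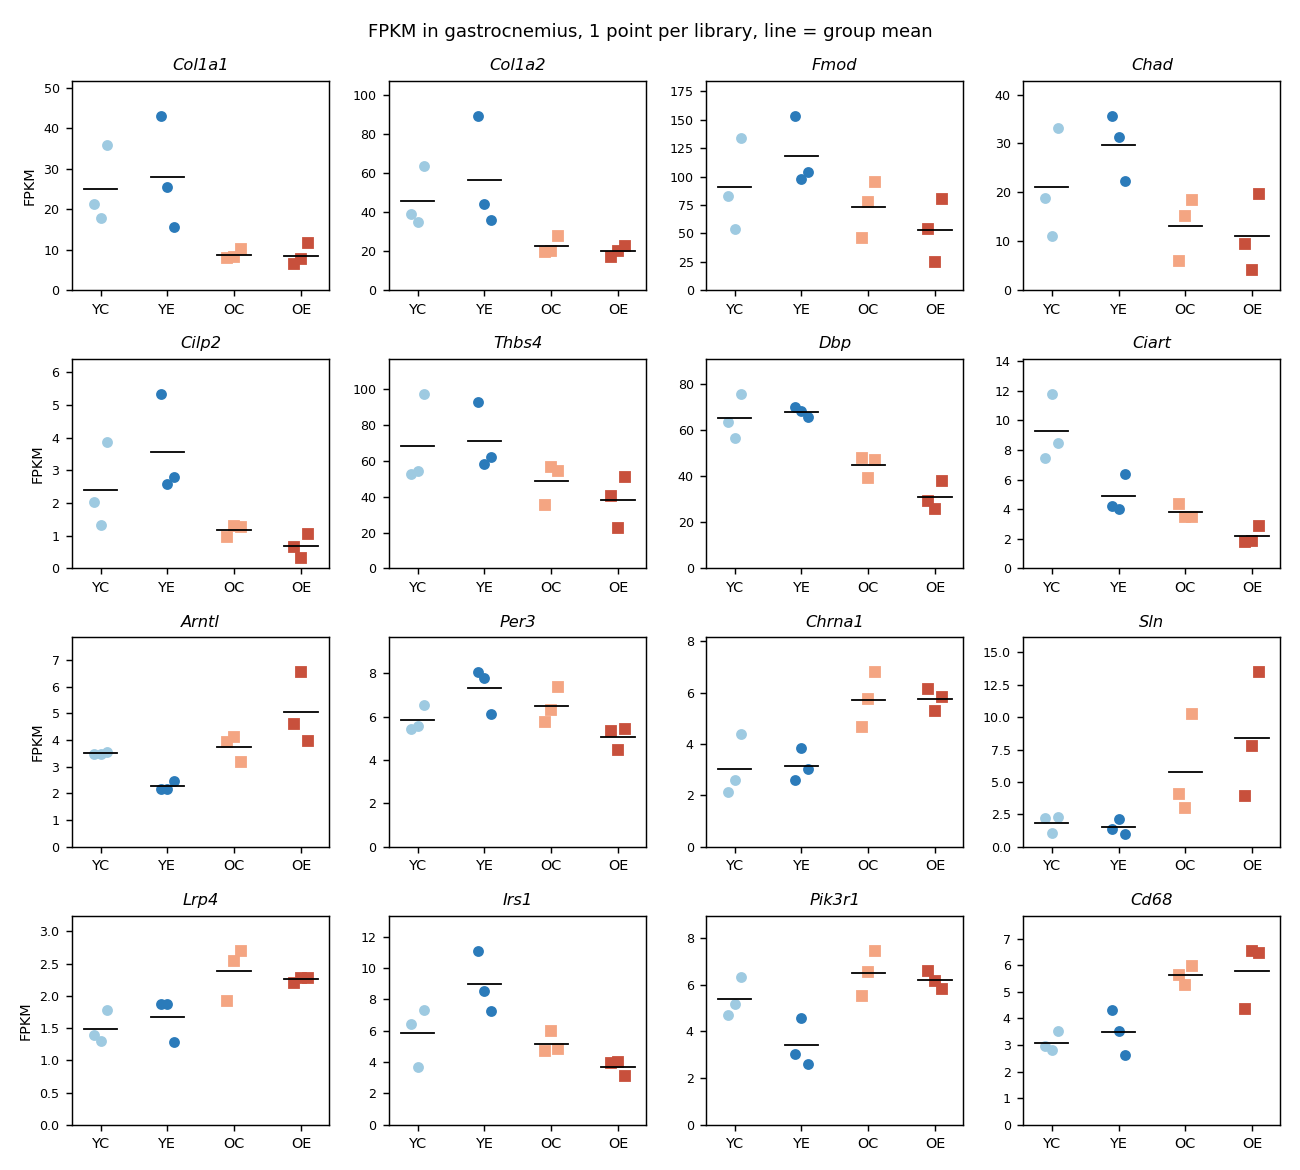
FPKM of 16 genes in the gastrocnemius of the 4 groups (YC and YE young, OC and OE old, E for exercise), with 1 point per library and a line at the mean of 3. Col1a1, Col1a2 and Dbp are lower and Chrna1 and Cd68 higher in both old groups, while Arntl, Per3 and Irs1 separate OE from YE and overlap between OC and YC.

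Macrophage genes had higher values without any of the list passing the test. All 16 macrophage genes were above 0 in OE/YE, with a median log2 fold change of 0.35, 1 was a DEG and 3 had no overlap. Without YE replicate 4 the median was 0.18. Cd68, a lysosomal protein of macrophages, was at 4.34, 6.55 and 6.47 FPKM in OE and at 4.32, 3.54 and 2.63 FPKM in YE. The lowest old and the highest young value nearly met. The list summed to between 140 and 189 FPKM in OE and between 90.9 and 155 FPKM in YE, so as a sum the groups overlapped, and in control mice its median was 0.45. Lyz2, lysozyme, had 0.40 and Cd163, a scavenger receptor of resident macrophages, had 0.49. The 7 class II genes of the major histocompatibility complex had 4 values above 0 and 3 below, with a median of 0.39 that ran from 0.09 without YE replicate 4 and 0.18 without OE replicate 2 to 0.71 without YE replicate 1, and OE replicate 2 and YE replicate 1 had the highest summed levels of their groups. The 28 class I and interferon genes had a median of -0.21 and none was a DEG. The sign of that median rests on YE replicate 1, without which it was 0.06, and it was -0.11 without OE replicate 1 and -0.38 without YE replicate 4. Cma1, Mcpt4 and Tpsb2, which code for proteases known from mast cells, were DEGs higher in OE. They were chosen after their values were seen, and other mast cell genes were not counted. Cma1, a chymase, was at 3.40, 7.09 and 4.06 FPKM in OE and at 1.73, 3.21 and 1.39 FPKM in YE. Mcpt4, another chymase, and Tpsb2, a tryptase, also had no overlap, and OE replicate 2 was the highest library for all of them.

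Irs1 and Pik3r1, at the first steps of insulin signalling, gave values well apart. Irs1, the adaptor of the insulin receptor, was at 3.92, 3.98 and 3.12 FPKM in OE and at 11.1, 8.52 and 7.27 FPKM in YE, a log2 fold change of -1.0 (limma, adjusted p = 0.0883). Pik3r1, the regulatory subunit of PI3-kinase that binds Irs1, was at 6.60, 6.15 and 5.83 FPKM in OE and at 3.04, 4.58 and 2.60 FPKM in YE, a log2 fold change of 0.76 (adjusted p = 0.0637). In control mice they had -0.21 and 0.13, and the differences of -0.79 for Irs1 (95% interval from -1.40 to -0.18) and 0.63 for Pik3r1 (from 0.23 to 1.04) did not pass after adjustment. Of the list of 20 genes, 9 had a value above 0 and 11 below, and 1 was a DEG higher and 2 were DEGs lower in OE. Its median was -0.02, and 0.10 without YE replicate 4. Socs2, an inhibitor of growth hormone signalling, was between 2.12 and 3.68 FPKM in OE and between 3.83 and 8.86 FPKM in YE.

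Growth and imprinted genes gave lower and higher values in OE. Meg3, a maternally expressed noncoding RNA of the Dlk1 region, was at 3.02, 3.04 and 4.13 FPKM in OE and at 7.78, 7.56 and 5.61 FPKM in YE, and Rian, its neighbour, was between 1.00 and 1.25 FPKM in OE and between 1.98 and 2.67 FPKM in YE. Both had similar log2 fold changes in control mice, -0.64 and -0.73, against -0.79 and -0.66 in trained mice. Igf2r, which clears Igf2, was between 13.4 and 14.4 FPKM in OE and between 10.6 and 11.7 FPKM in YE (limma, adjusted p = 0.0637) and had 0.03 in control mice. Ostn, the secreted peptide musclin, was at 26.1, 44.5 and 35.6 FPKM in OE and at 19, 8.19 and 13.1 FPKM in YE, a log2 fold change of 1.34, and 1.49 in control mice. Of the 14 myokine genes measured, Ostn and Dkk3 were the DEGs.

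Lipid and energy genes were led by a few libraries. Of 20 adipocyte and lipogenesis genes 19 had a value below 0, with a median of -0.71, and 4 were DEGs lower in OE. Without YE replicate 2 the median was -0.28. Fasn, fatty acid synthase, was at 2.92, 7.17 and 2.96 FPKM in OE and at 12.6, 57.7 and 10.7 FPKM in YE. Acly, which supplies its acetyl-CoA, was between 4.93 and 5.24 FPKM in OE and at 11.3, 39.3 and 7.09 FPKM in YE. YE replicate 2 was far above the other young libraries in both, and Adipoq, the adipocyte hormone, was at 5.11, 25.8 and 0.833 FPKM in OE and at 9.81, 31.2 and 7.58 FPKM in YE, with the groups overlapping. The list summed to between 488 and 847 FPKM in OE and between 697 and 1630 FPKM in YE. The part of fat tissue in the Fasn and Acly values was not tested.

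The energy metabolism lists had medians near 0. The 26 genes of oxidative phosphorylation had a median of -0.08, the 24 of fatty acid oxidation 0.02 and the 22 of glycolysis and glycogen -0.09, and none was a DEG. With a library left out these medians lay between -0.18 and 0.19. Ldha, lactate dehydrogenase A, was at 1558, 1532 and 1689 FPKM in OE and at 1954, 1897 and 1949 FPKM in YE, a log2 fold change of -0.28 (limma, adjusted p = 0.174). Pfkfb3, which makes the activator of phosphofructokinase, was chosen after its values were seen. It was at 25.1, 18.4 and 19.4 FPKM in OE and at 95.3, 38.9 and 54.1 FPKM in YE, a log2 fold change of -1.37, and -1.93 in control mice. Tfrc, the transferrin receptor of the iron list, was at 40.6, 23.6 and 9.13 FPKM in OE and at 47.2, 46.9 and 41.7 FPKM in YE, with the lowest value in OE replicate 3. The lists of apoptosis, p53 and senescence, antioxidant, heat shock, cell cycle, endothelial and Schwann cell genes had medians from -0.09 to 0.08, and from -0.15 to 0.20 with a library left out, and none of their members was a DEG.

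**Figure D5:**
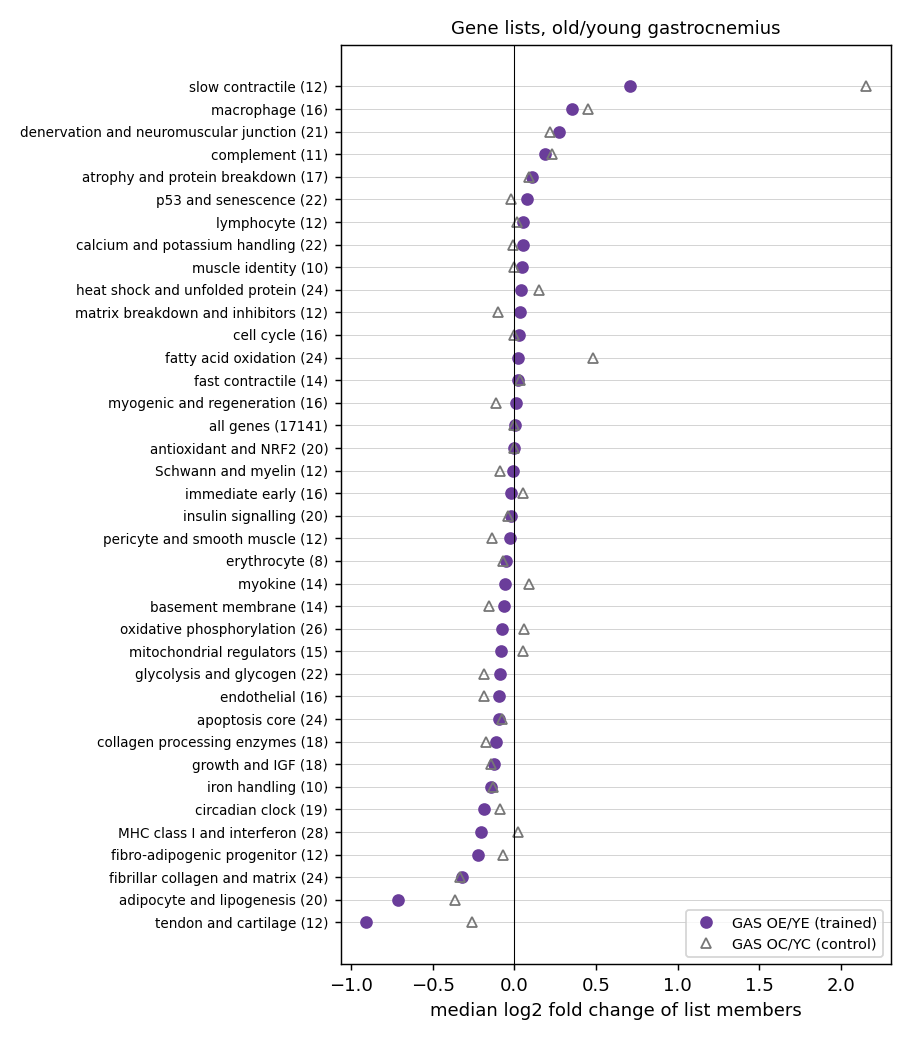
Median log2 fold change of old over young gastrocnemius for the gene lists in trained mice (filled circles) and control mice (open triangles), with the number of members above 0 FPKM in brackets. The list of 7 class II genes is not shown. The lowest medians in trained mice are those of tendon and cartilage (-0.91) and adipocyte and lipogenesis (-0.71), and the highest is that of the slow contractile genes (0.71), whose values overlapped between OE and YE.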

How the data were processed

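RNA of whole muscles was sequenced by the study. The submitters' processing notes name HISAT2 2.1.0 and StringTie 1.3.4d with mm10, and other aligners whose role they do not state. The deposited table holds the authors' FPKM per gene and library and their log2 values, which are log2(FPKM + 1) after quantile normalization over the 24 libraries. Repeating these steps gave the deposited log2 values within 5e-09. The deposited table also holds the authors' own SOL against GAS comparisons (group means, SDs, folds, test statistics and p-values), which were not used. The table holds no read counts, so depth in reads is unknown and counting errors cannot be stated. By the commonest ratio of low FPKM values, the other 5 libraries held 1.05 to 1.41 times the depth of OE replicate 1. No difference in depth between the groups was corrected. For 25 genes a symbol turned into a date was restored from the gene ID, and 18758 of the 18795 gene IDs were found in GRCm38.p6, which gives the positions.

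Groups came from the labels. Limma 3.58.1 in R 4.3.3 was fitted with an intensity trend to the 12 GAS libraries, or to all 24 for the difference between muscles, without a block and two-sided, with Benjamini-Hochberg adjustment over all genes. The script was tested on simulated data with normal spread and changes added only to genes with a mean log2 value above 1. That test covers neither libraries that stand apart nor changes in lower genes, and 8 of the 31 had a mean log2 value under 1. An exact permutation test of 3 against 3 has 0.1 as its smallest p and was not used. Fold changes and errors are on the log2(FPKM + 1) scale. In the alternative with the mouse as a block, SOL and GAS libraries of a number were taken as the same mouse. This follows the study's account of 3 mice per group, and the labels do not state it. The main fit of the difference between muscles treated these libraries as independent. Over 10718 genes, the deviations of SOL and GAS libraries of a number from their group means correlated between -0.03 and 0.36. The range was 0.21 to 0.36 in YE and -0.03 to 0.07 in OE. The median for other numbers was -0.07, which is no independent baseline, since deviations within a group of 3 sum to 0. The members and the 38 gene lists were chosen with earlier results of these data known. The rule for named genes took the 10 largest rises and falls (8 fell at 1 FPKM or more, filled by unadjusted p), up to 4 members per list with the smallest p, and up to 5 genes per direction in each difference test. The other changed genes and further list members were named after their values were seen. Alternatives were an equal-variance t-test, a fit of the compared libraries alone, 0.1 as the pseudocount, only genes reaching an FPKM of 1 in 3 libraries, no quantile normalization or normalization within GAS, no intensity trend, a block and leaving out each library. Sequences are from RefSeq promoter windows of GRCm38.p6.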

Additional observations from a re-analysis of the deposited data

Results flagged for a closer look

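The age effect in the gastrocnemius of trained mice differed from that in their soleus, by a limma test of the difference itself, for 9 genes named by the rule. The difference of the log2 fold changes, GAS minus SOL, was 1.53 for Kcnab1, 1.48 for Dkk3, 1.19 for Cpne2 and 1.13 for Tmem132b. It was -0.78 for Cdc27, -1.22 for Amph, -1.16 for Gnal, -0.71 for Kcnj3 and -0.70 for Ccdc64. Of the 26 genes called by this test, 21 had a mean log2 value under 1. With a pseudocount of 0.1, 12 of the 26 stayed called, with the filter on low FPKM 13, with the t-test 5 and with the mouse as a block 15. Between trained and control gastrocnemius a limma test of the difference singled out Ppp1r36, with a difference of -0.0816 that rests on values near 0 FPKM. Causes were not tested.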

How the results depend on the processing

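The count of changed genes in GAS OE/YE, 31, was 1 with the equal-variance t-test, 1 with only the libraries compared, 49 without the intensity trend and 0 with the replicate number as a block, and from 10 to 58 with each library left out. Under the block 0 genes passed in limma while 146 remained DEGs, and the replicate numbers name different mice here, with deviations correlating at 0.02 and -0.26 for numbers 1 and 2. Only the spread is re-estimated in the fit on the libraries compared, so fewer libraries enter it. The DEGs, 171, were 112 with the t-test and 602 with a pseudocount of 0.1, and from 171 to 285 with a library left out. The difference between trained and control age effects, called for 1 gene, was called for 0 with the t-test, the filter on low FPKM, normalization within GAS, no intensity trend or the block, for 2 with the pseudocount of 0.1, and for 0 to 9 with a library left out. The difference between the muscles, 26, was 7 with the t-test, 16 with the pseudocount of 0.1, 13 with the filter and 16 with the mouse as a replicate block, and from 23 to 41 with a library left out. The 4 list members called were 0 with the t-test, the libraries compared or the block and 10 with the filter, and from 1 to 5 with a library left out. All 31 changed genes kept their direction under each alternative, and 3 were called with each of the 6 libraries left out. Some genes that were not called crossed 0: Myh4 had 0.0815 without quantile normalization, and with a library left out Myh4 ran from -0.14 to 0.0061, Amph from -0.00966 to 0.179, Ccdc64 from -0.000304 to 0.081, Myog from -0.0174 to 0.543 and Trim63 from -0.00808 to 0.382. Except where a setting itself uses fewer libraries or genes, the cause was not tested. The unknown depth limits what the genes under 1 FPKM can show.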
